A study of Homo sapiens with 3 samples.

Results

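The genes described here encode 7 proteins with MBT (malignant brain tumour) repeats: L3MBTL1, L3MBTL2, L3MBTL3, L3MBTL4, SFMBT1, SFMBT2 and MBTD1. They are 7 of 19756 protein-coding genes annotated on chromosomes 1 to 22 and X. For each gene, every chromatin immunoprecipitation (ChIP) peak was taken whose summit lay within 50 kb of one of the gene's protein-coding transcription start sites (TSS), and 4 peaks met this rule, 1 of 2926 in the RBPJ list and 3 of 444 in the L3MBTL3 list. The cells were MDA-MB-231, an established human breast cancer line grown in serum-containing medium with no treatment named in the labels. One library was made with an antibody against RBPJ (also called CBF1), the DNA-binding factor of the Notch pathway, and one with an antibody against L3MBTL3, so no replicate error exists and no test between samples was possible. Input DNA is labelled as a further library, and its reads were not used here. The question stated by the series was where both proteins lie together on chromatin. Here it is asked of the genes for L3MBTL3 and its relatives.

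An MBT repeat folds into a pocket that holds a mono- or dimethylated lysine, and MBT proteins read such marks on histones and other proteins, mostly in repressive complexes. L3MBTL1 compacts chromatin, and its gene is imprinted in human blood cells. L3MBTL2 is a subunit of the Polycomb complex PRC1.6. SFMBT1 associates with the histone demethylase KDM1A (LSD1) and its corepressor CoREST. SFMBT2 is a partner of YY1, and its mouse gene is imprinted and needed for the placenta. MBTD1 is a subunit of the TIP60 acetyltransferase complex. L3MBTL3 is named in the series title as a partner of RBPJ in repression of Notch signalling by KDM1A.

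The sequences under the L3MBTL1 and SFMBT2 peaks are shown because both lie in tandemly repeated DNA. They are from the plus strand of the GRCh37 (hg19) genome, read 5′ to 3′ and span 100 bp on either side of the summit. Capitals mark the longest word present at least 3 times without overlap between its copies.
L3MBTL1, RBPJ peak, chr20:42142842-42143042: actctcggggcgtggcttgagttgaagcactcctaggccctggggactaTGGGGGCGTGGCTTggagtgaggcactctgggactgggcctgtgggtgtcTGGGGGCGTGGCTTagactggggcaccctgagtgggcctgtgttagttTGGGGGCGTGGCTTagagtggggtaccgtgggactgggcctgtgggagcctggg
SFMBT2, L3MBTL3 peak, chr10:7420215-7420415: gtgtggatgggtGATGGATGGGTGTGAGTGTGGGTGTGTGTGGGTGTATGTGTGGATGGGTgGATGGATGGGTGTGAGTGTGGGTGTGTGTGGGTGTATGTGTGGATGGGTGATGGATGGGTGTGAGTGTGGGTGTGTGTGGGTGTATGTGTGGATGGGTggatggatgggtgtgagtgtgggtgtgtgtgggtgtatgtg

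RBPJ had a peak near 1 of the 7 genes, L3MBTL1. Over all protein-coding genes, 21.8% had an RBPJ summit within 50 kb of a TSS, and 25.4% of the genes with a CpG-rich TSS did. A CpG-rich TSS is one whose surrounding 1 kb had a ratio of observed to expected CpG above 0.6, and all 7 MBT genes had at least 1 such TSS. L3MBTL3 had peaks near 2 of the 7 genes, SFMBT1 and SFMBT2, against 2.89% of all protein-coding genes and 3.53% of those with a CpG-rich TSS. Within 1 kb of a TSS, RBPJ was found at 1 of the 7 (L3MBTL1; 8.90% of all genes) and L3MBTL3 at 1 of the 7 (SFMBT1; 1.37% of all genes). With 7 genes, 1 peak more or less moves these shares widely, and they are given as a description. Peaks of both proteins within 50 kb were found at 0 of the 7 MBT genes and at 348 of all 19756 genes (1.76%), so a count of 0 is close to the share over all genes. Of the 4 peaks, 0 overlapped a peak of the other list, where 127 of 444 L3MBTL3 peaks (28.6%) and 128 of 2926 RBPJ peaks (4.37%) did. L3MBTL2, L3MBTL3, L3MBTL4 and MBTD1 had neither.

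**Figure D1:**
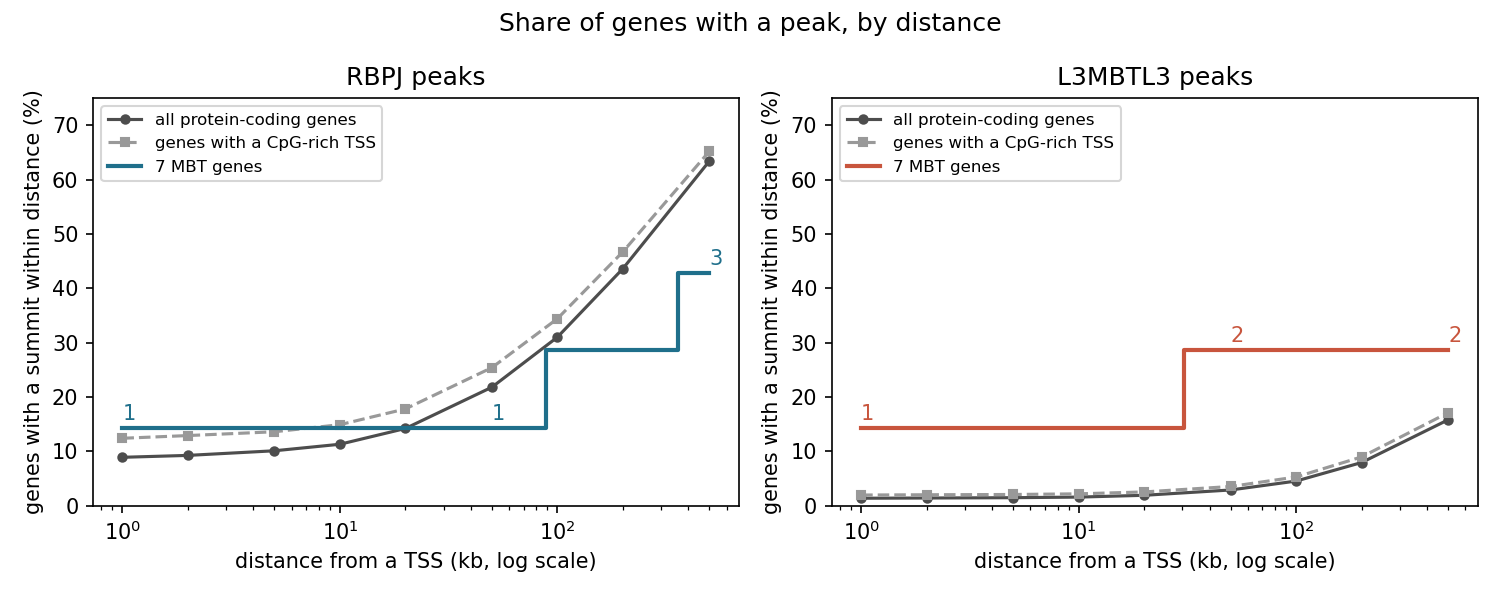
Percent of genes with a summit within a given distance of a TSS (kb, log scale), for RBPJ peaks on the left and L3MBTL3 peaks on the right. Circles are all 19756 protein-coding genes, squares are genes with a CpG-rich TSS, and the coloured steps are the 7 MBT genes with their number printed at 1, 50 and 500 kb; the RBPJ steps go from 1 to 3 genes and the L3MBTL3 steps from 1 to 2.

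SFMBT1 carried the strongest L3MBTL3 peaks of the family. The gene (ENSG00000163935.14) lies on the minus strand of chromosome 3 at 52937588 to 53080766 in hg19. One L3MBTL3 peak (53079808 to 53079884) had its summit 212 bp downstream of a TSS, in a UTR, with a fold enrichment at the summit of 7.95 and a -log10 q of 7.36. The other (53080149 to 53080199) had its summit 91 bp upstream of a TSS, in an intron of the longer transcripts, with a fold of 6.38 and a -log10 q of 5.22. The summits were 324 bp apart, with the TSS at 53080068 and 53080089 between them. By fold these peaks ranked 21 and 111 among the 444 L3MBTL3 peaks, whose median fold was 5.57. They were 77 and 51 bp wide, wider than 37.8% and 6.31% of the list, whose median width was 86 bp and smallest width 50 bp.

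No RBPJ peak accompanied the pair at SFMBT1. The nearest RBPJ summit on chromosome 3 was 360 kb away (52719591 to 52719687, fold 4.58), 82 bp from a TSS of PBRM1, which encodes a subunit of a chromatin remodelling complex. Groups of L3MBTL3 peaks like this one were common in the list, where 199 peaks (44.8%) had another L3MBTL3 summit within 1 kb. Such summits formed 81 groups of 2 or more peaks. Of these groups, 28 had no RBPJ summit within 100 kb, and that of SFMBT1 was number 3 among the 28 by its highest fold. Among all 163 L3MBTL3 peaks with no RBPJ summit within 100 kb, the stronger SFMBT1 peak ranked number 5 by fold.

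The SFMBT1 promoter was rich in CpG and held no RBPJ word. The windows within 100 bp of its summits had a GC content of 69.7% and 79.1%, with 31 and 25 CpG dinucleotides. The high-affinity RBPJ words, CGTGGGAA and TGTGGGAA on either strand, were absent within 100 bp of both summits, and so was the core TGGGAA. The nearest high-affinity word, CGTGGGAA on the minus strand at 53091405 to 53091412, was 11229 bp from the upstream summit. Over the whole L3MBTL3 list, 10.1% of peaks had a high-affinity word and 19.8% the core within 100 bp. In windows centred 2 kb from the summits these shares were 0.788% and 17.8%, so the core was hardly more frequent at the peaks. The other words found within 100 bp of the summits lay outside both peaks. A GC box (GGGGCGGGG, minus strand, 53079758 to 53079766) began at -98 bp from the downstream summit, in chromosome coordinates. CCAAT (53080083 to 53080087) began at -97 bp from the upstream one. In the list 15.1% of peaks had the GC box and 12.2% had CCAAT, against 1.91% and 24.0% of windows centred 2 kb from the summits.

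**Figure D2:**
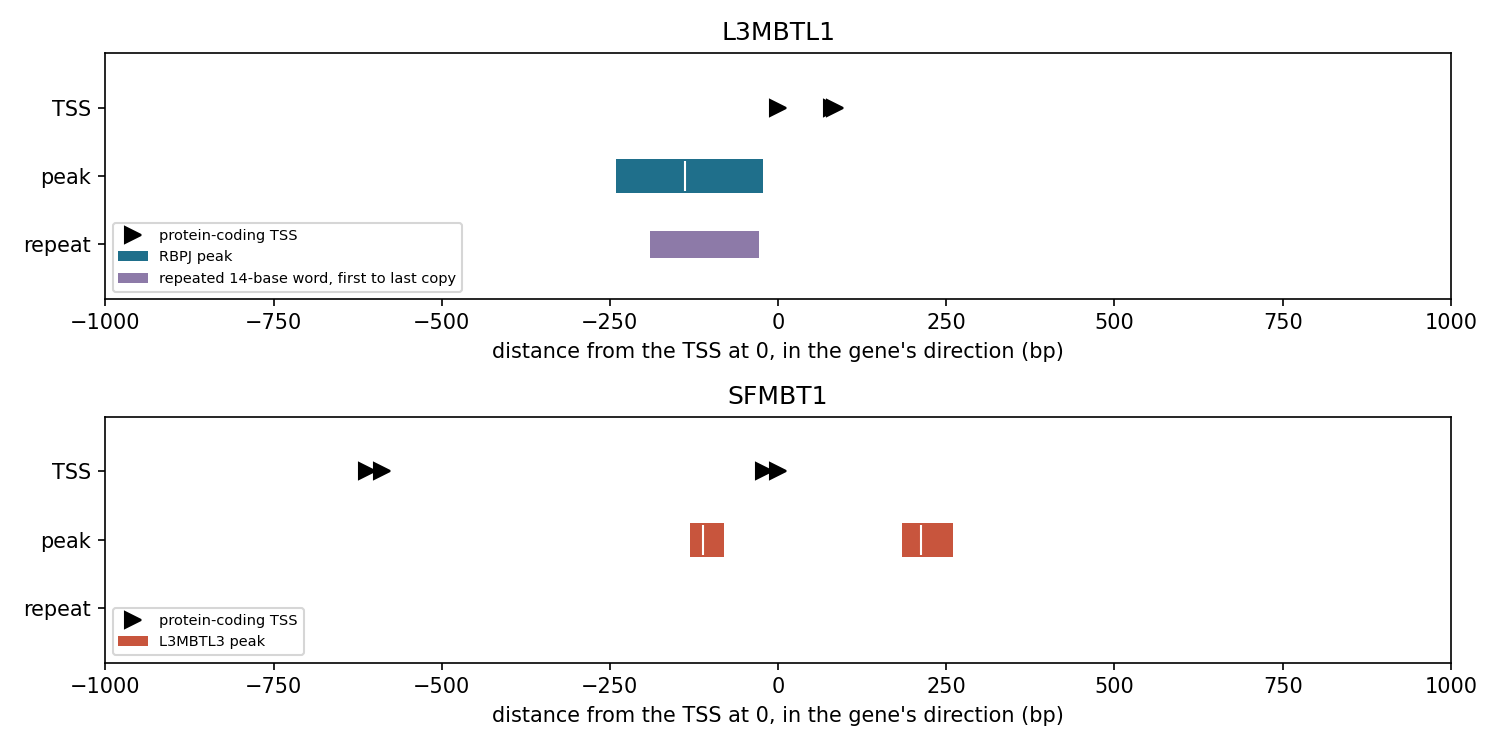
Position of TSS (arrowheads), peaks (bars, with the summit as a white line) and the repeated word (purple bar, first to last copy) at L3MBTL1 and SFMBT1, as distance in bp in the direction of the gene. At L3MBTL1 the 0 point is the TSS nearest the RBPJ summit and the repeat lies under the peak; at SFMBT1 it is the most downstream TSS, which sits between the 2 L3MBTL3 peaks.

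SFMBT2 had 1 L3MBTL3 peak, inside the gene and away from its promoter. The gene (ENSG00000198879.13) occupies chromosome 10, 7200586 to 7453450, on the minus strand. The peak (7420306 to 7420361) lay in an intron 30.4 kb downstream of the nearest TSS, with a fold of 4.64 and a -log10 q of 3.19. It ranked 367 of 444 by fold. Of the L3MBTL3 peaks, 12.4% (55) lay more than 10 kb from any protein-coding TSS, with a median fold of 5.45 and a range of 2.87 to 10.6, and 15 of these were weaker than the SFMBT2 peak. No searched word lay within 100 bp of the summit, and the window held 0 CpG dinucleotides. All 8 SFMBT2 TSS were CpG-rich, and none had a peak of either protein within 10 kb. The nearest RBPJ summit to a TSS of the gene was 1133.3 kb away (fold 5.33), with PFKFB3, which encodes an enzyme that controls glycolysis, as the nearest gene.

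The SFMBT2 peak lay in a tandem repeat. The word in capitals is 49 bases long, and all 5 of its copies in the genome lie within 1 kb of the summit, from 7420227 to 7420647. The sequence within 250 bp of the summit matched itself at 74.1% of bases when shifted by 99 bp, where the best such match had a median of 38.7% over the L3MBTL3 list. Only 7 of 444 L3MBTL3 peaks (1.58%) reached that value, and 0 of 888 windows centred 2 kb from the summits did. Each of 4 words of 50 bases taken across the summit, the length of the reads, occurred at 2 places in the genome. Both places lay within the sequence shown above, 99 bp apart, and not at another locus. The words taken the same way at the SFMBT1 and L3MBTL1 peaks occurred at 1 place. The SFMBT1 peaks matched themselves at 39.5% and 41.9%, and no repeated word was found in them. The part of the repeat in the enrichment at SFMBT2 was not tested.

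L3MBTL1 had the family's single RBPJ peak. The gene (ENSG00000185513.18) lies on the plus strand of chromosome 20, 42118082 to 42179594. The peak (42142840 to 42143058) was 219 bp wide, with its summit 139 bp upstream of the TSS at 42143081, a fold of 5.23 and a -log10 q of 3.94. It ranked 1300 of 2926 by fold, close to the list median of 5.08, and was wider than 89.6% of RBPJ peaks. In longer transcripts the summit is intronic, and the gene model ENSG00000288000 also spans it. The next gene, SGK2, had its TSS 44.7 kb away. No L3MBTL3 peak lay nearer to a TSS of the gene than 7183.3 kb, at PARD6B, which encodes a cell polarity protein (fold 4.87).

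The L3MBTL1 peak lay away from the gene's CpG-rich start sites. L3MBTL1 has 9 protein-coding TSS, of which 5 lie between 42136318 and 42136354 with CpG ratios of 0.836 to 0.854, and these had no peak within 1 kb. The TSS beside the peak had a ratio of 0.553. Of the 1876 RBPJ peaks within 1 kb of a TSS, 104 (5.54%) had a nearest TSS that was not CpG-rich. Within 100 bp of the L3MBTL1 summit there were 6 CpG dinucleotides at a GC content of 65.7%.

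The L3MBTL1 peak also lay in a short repeat and lacked the RBPJ words. The 14-base word TGGGGGCGTGGCTT occurred 4 times from 42142891 to 42143052, at spacings of 48 to 50 bp, and 29 times in the genome. Shifted by 98 bp, the sequence within 250 bp of the summit matched itself at 44.2% of bases, against a median of 35.1% over the RBPJ list. That value was reached by 73 of 2926 RBPJ peaks (2.49%) and by 1.56% of windows centred 2 kb away. Neither high-affinity word nor the core TGGGAA lay within 100 bp of the summit. In the RBPJ list 8.51% of peaks held a high-affinity word there and 29.5% the core, against 1.56% and 16.8% of windows centred 2 kb away. The first 7 letters of the high-affinity words were present at 2 places, CGTGGGA at 42143015 to 42143021 and TGTGGGA at 42143029 to 42143035, 73 and 87 bp from the summit. This shorter word was searched only after the sequence had been seen, and 16.2% of RBPJ peaks and 4.92% of the flanking windows held it. The part of the repeat in the enrichment at L3MBTL1 was not tested.

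**Figure D3:**
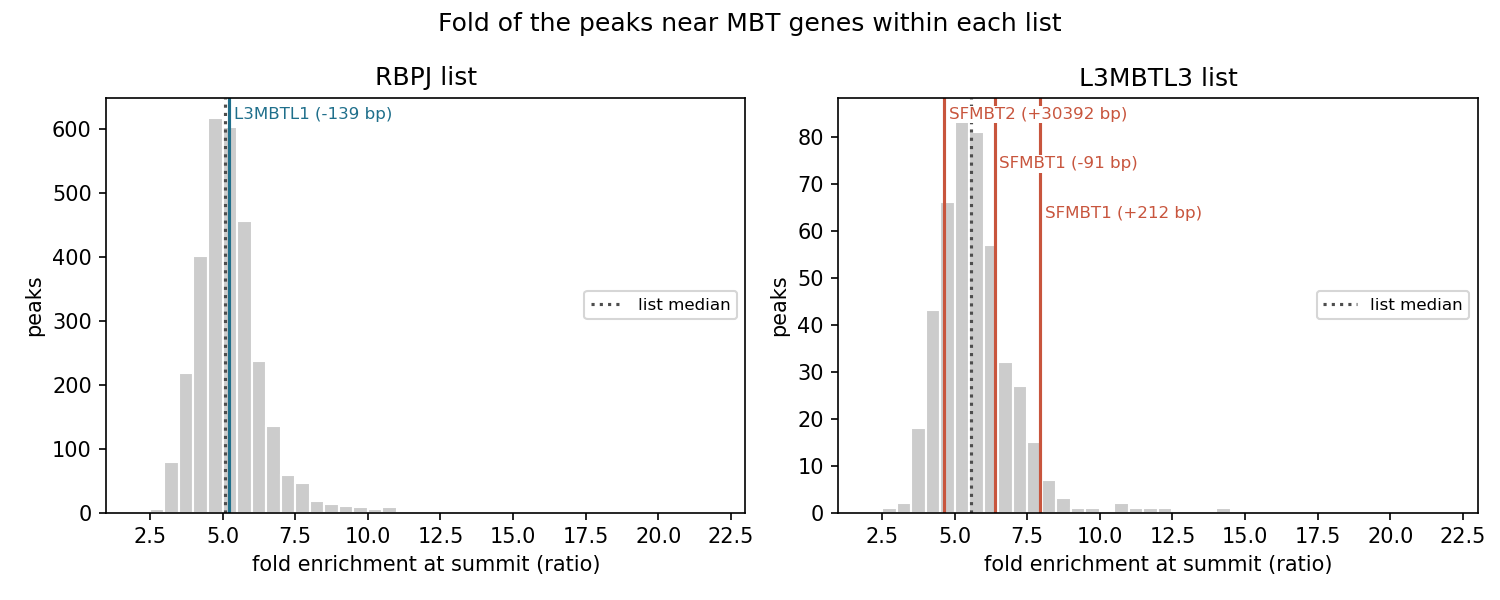
Histogram of the fold enrichment at the summit (ratio, as deposited) for all peaks of the RBPJ list (left) and the L3MBTL3 list (right), in bins of 0.5. Coloured lines mark the peaks near MBT genes with the summit's distance from the nearest TSS: the L3MBTL1 peak sits beside the dotted median, the SFMBT2 peak below it and both SFMBT1 peaks above it.

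The gene for L3MBTL3 itself had no peak of either protein. It lies on chromosome 6 (ENSG00000198945.8, 130334844 to 130462594, plus strand), with 8 protein-coding TSS, 7 of them CpG-rich. The nearest RBPJ summit (126070359 to 126070947, fold 8.86) and the nearest L3MBTL3 summit (126070343 to 126070949, fold 11.7) were both 4.26 Mb upstream, in overlapping peaks at HEY2, which encodes a Notch-induced repressor. An RBPJ summit was nearer for 93.5% of all genes and an L3MBTL3 summit for 53.0%. The chromosome was not poor in peaks: it held 327 RBPJ and 57 L3MBTL3 peaks, and 39.3% of its 1028 genes had an RBPJ summit within 50 kb. No high-affinity RBPJ word and no core lay from 250 bp before to 50 bp after any of its TSS. The nearest high-affinity word, TGTGGGAA at 130331929 to 130331936, lay at -2911 bp from the first TSS, and the region within 50 kb of its TSS held 3 such words, or 2.81 per 100 kb, against 6.72 per 100 kb over the genome.

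L3MBTL2, L3MBTL4 and MBTD1 had no peak within 50 kb either. L3MBTL2 (ENSG00000100395.15, chromosome 22, 41601286 to 41627275, plus strand) was 1630.3 kb from the nearest RBPJ summit, near the calcium channel gene CACNA1I (fold 7.30), and 4766.9 kb from the nearest L3MBTL3 summit, at WNT7B, which encodes a Wnt ligand (fold 5.73). Chromosome 22 held 10 RBPJ peaks, and 4.81% of its 437 genes had an RBPJ summit within 50 kb. L3MBTL4 (ENSG00000154655.16, chromosome 18, 5954705 to 6415236, minus strand) is the longest gene of the family, 461 kb, and held no summit of either protein in its body. Its nearest summits were 1152.0 kb away for RBPJ, at the receptor phosphatase gene PTPRM (fold 4.33), and 1030.2 kb away for L3MBTL3, at the zinc finger gene ZBTB14 (fold 5.38).

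MBTD1 came closest to the 50 kb limit from outside. The gene (ENSG00000011258.16, chromosome 17, 49254786 to 49337524, minus strand) had its nearest RBPJ summit 88.2 kb from a TSS (49198503 to 49198579, fold 4.83, -log10 q 3.04). That peak lay 315 bp from a TSS of SPAG9, which encodes a kinase scaffold, and so at the promoter of another gene. The nearest L3MBTL3 summit was 4437.8 kb away, at WNT3, which encodes a Wnt ligand (fold 6.29). The farthest summit inside the limit was that of SFMBT2, at 30.4 kb.

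**Figure D4:**
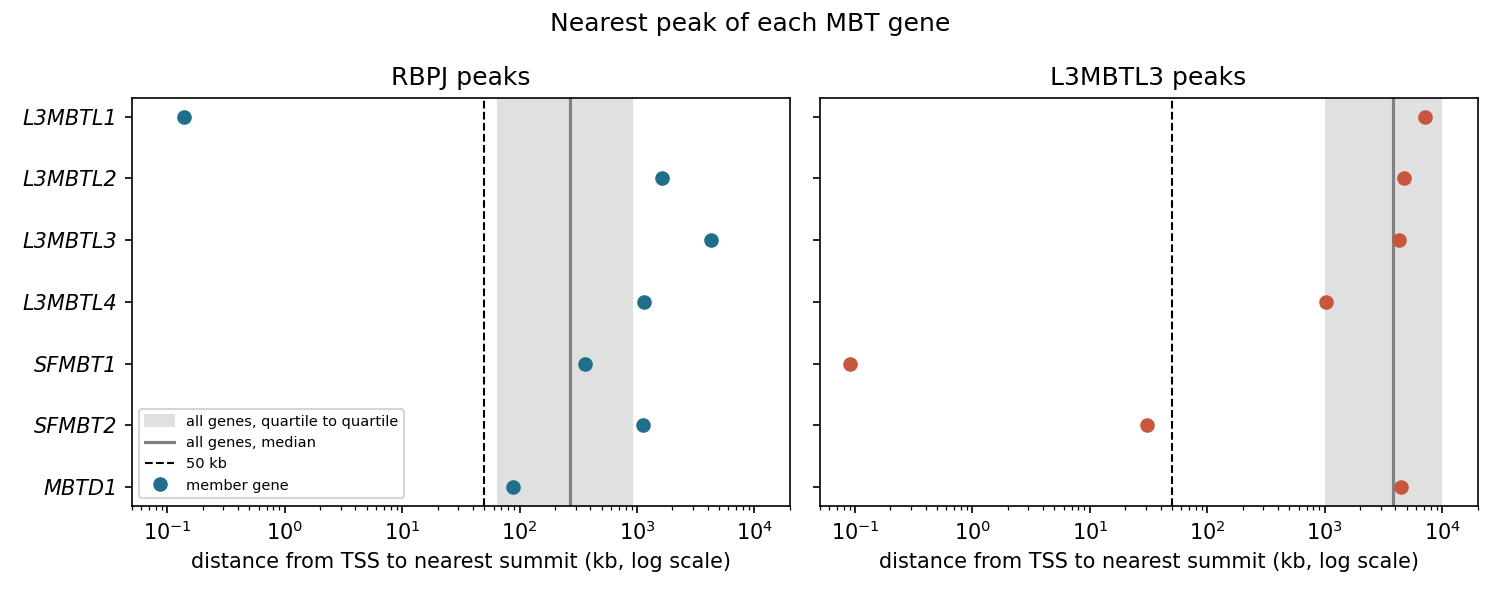
Distance from each MBT gene's TSS to the nearest summit (kb, log scale), for RBPJ peaks on the left and L3MBTL3 peaks on the right. The grey band runs from the lower to the upper quartile of all protein-coding genes, the grey line is their median (270 kb for RBPJ, 3792.5 kb for L3MBTL3) and the dashed line is 50 kb; only L3MBTL1 on the left and SFMBT1 and SFMBT2 on the right lie below it.

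The searched words were counted at the start sites of the family. The 7 genes have 39 protein-coding TSS, many within a few bases of each other, so their windows from 250 bp before to 50 bp after the TSS share sequence and are not independent. A high-affinity word lay in 0 of the 39 windows and in 2.28% of 78399 such windows over all genes, a share at which few of 39 windows would hold one. The core TGGGAA lay in 4 of 39, at L3MBTL2, L3MBTL4 and MBTD1, against 22.7%. CCAAT, the most frequent of the searched words, lay in 15 of 39 against 33.4%, in all genes of the family except L3MBTL1. The E-box CACGTG lay at 1 TSS of SFMBT2 (7.75% of all windows), the AP-1 word TGACTCA at the first TSS of L3MBTL3 (3.78%) and the GC box at 1 TSS of SFMBT1 (18.7%). The words of E2F (TTTCCCGC or TTTGGCGC; 2.63%), ETS (ACCGGAAGT; 1.25%) and CRE (TGACGTCA; 2.09%) lay in 0 of 39. All words were sought on both strands.

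High-affinity RBPJ words outside any RBPJ peak lay within 50 kb of all 7 genes. There were 46 such words in all: 11 at MBTD1, 10 at L3MBTL1, 7 each at L3MBTL2 and SFMBT2, 6 at L3MBTL4, 3 at L3MBTL3 and 2 at SFMBT1. The density was 7.78 per 100 kb at L3MBTL1, where RBPJ had a peak, and 7.30 at MBTD1 and 6.71 at L3MBTL2, where it had none. The word nearest to a TSS of the family lay at -935 bp at L3MBTL2. That gene was without a peak, while at L3MBTL1 the word nearest to the RBPJ summit was 2344 bp away.

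Genes of the complexes that hold MBT proteins were described by the same 50 kb rule, for which the shares over all genes are 21.8% for RBPJ and 2.89% for L3MBTL3 (25.4% and 3.53% of genes with a CpG-rich TSS). The lists were drawn up with earlier results known, and HDAC1 and HDAC2 stand in both the LSD1-CoREST and the PRC1.6 list. The LSD1-CoREST list holds 13 genes of this complex, a partner of SFMBT1 and L3MBTL3, and of its relatives. Of these genes, 5 had an RBPJ summit (38.5%) and 3 an L3MBTL3 summit (23.1%). RBPJ was at the promoters of RCOR1 (fold 8.59), KDM1B (7.82), RCOR3 (6.64) and PHF21A (5.04), and L3MBTL3 at those of KDM1B (5.96), CTBP1 (5.92) and PHF21A (5.32). RCOR2 was counted for RBPJ only through summits 21.6 and 45.0 kb from its TSS, nearer to NAA40 and MARK2. At KDM1B, which encodes a relative of KDM1A, the peaks of both proteins overlapped. A further RBPJ peak there lay 12 bp from a TSS of TPMT. KDM1A itself, HDAC1 and HDAC2 had no summit of either protein within 50 kb. Of 13 genes of PRC1.6, the complex of L3MBTL2, 2 had an RBPJ summit (15.4%), E2F6 at its promoter (fold 6.33) and RYBP 41 kb away (4.83), and 0 an L3MBTL3 summit. Of 18 genes of the TIP60 complex, which holds MBTD1, 3 had an RBPJ summit (16.7%; EPC1, MRGBP and KAT5), and EPC1 alone had an L3MBTL3 summit (fold 6.36), with peaks of both proteins that overlap beside it (4.37 for RBPJ and 4.45 for L3MBTL3). The KAT5 peak lay 86 bp from a TSS of RELA.

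Among 28 other readers of methylated lysine, 10 had an RBPJ summit within 50 kb (35.7%, against 21.8% of all genes) and 8 within 1 kb (28.6%, against 8.90%). An L3MBTL3 summit lay within 50 kb of 1 gene (3.57%, against 2.89%), CBX2, at 38.8 kb and nearer to ENPP7. The highest RBPJ folds were those of CHD1 and PHF20, 6.74 each, with PHF20 at 2 bp from a TSS. Some of the 10 are neighbouring genes that share a peak, so they are not all separate observations. ING4 was counted through a peak 26.2 kb away, 16 bp from a TSS of ZNF384. H4K20, H3K9 and H3K27 are lysines at which some states of methylation mark repressed chromatin. Of 18 methyltransferase and demethylase genes for them, 10 had an RBPJ summit within 50 kb (55.6%, against 21.8% of all genes). Within 1 kb, 6 had an RBPJ summit (33.3%, against 8.90%), and 0 of the 18 had an L3MBTL3 summit within 50 kb. By fold, KDM6B (7.07, with the summit 1.82 kb from a TSS), KMT5A (5.94) and SUV39H2 (5.34) led the 10. SETDB1 (49.7 kb) and EHMT1 (13.5 kb) were counted through peaks at the promoters of ARNT and ARRDC1. KDM4B was counted through a peak 32.2 kb from its TSS. These lists are short, and the shares are given as a description with no test. All genes of these lists had a CpG-rich TSS. Of all genes with such a TSS, 25.4% had an RBPJ summit within 50 kb and 12.4% within 1 kb.

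**Figure D5:**
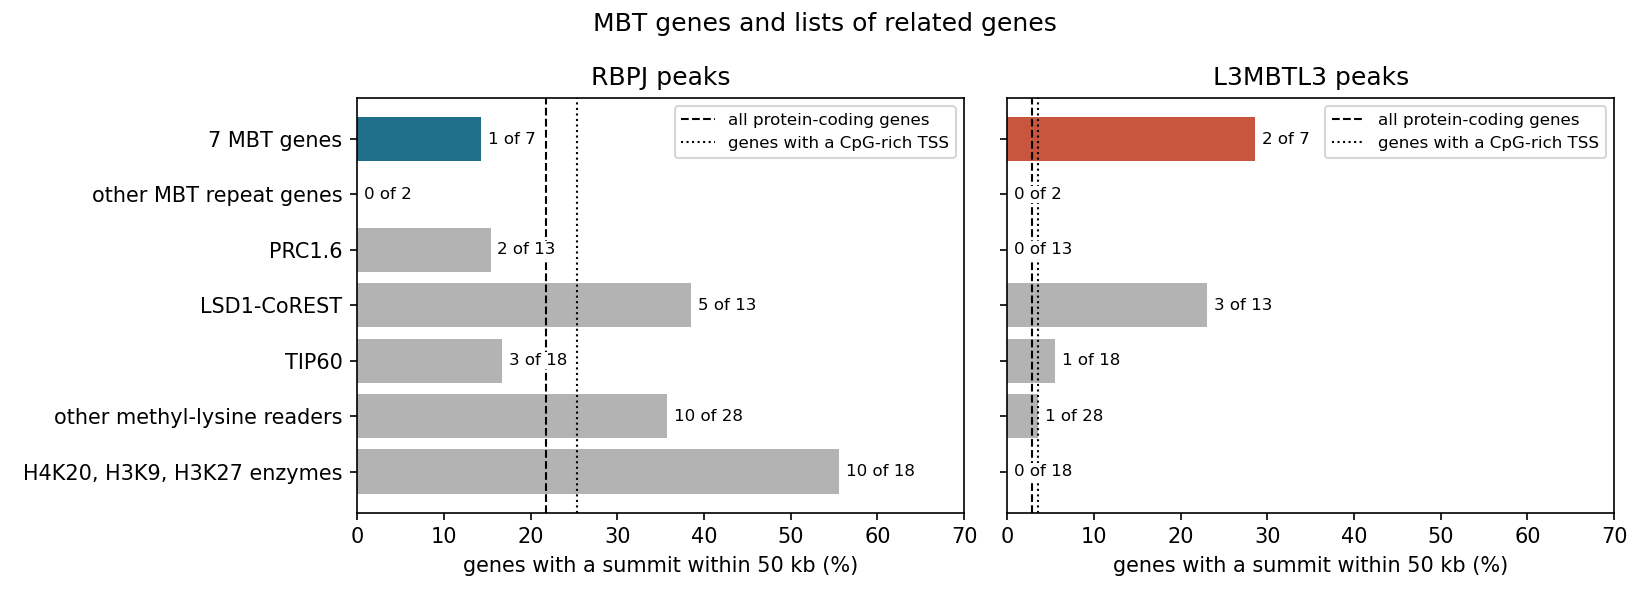
Percent of genes with an RBPJ summit (left) or an L3MBTL3 summit (right) within 50 kb of a TSS, for the 7 MBT genes (coloured) and lists of related genes (grey), with the number of genes beside each bar. The dashed line is the share of all protein-coding genes and the dotted line that of genes with a CpG-rich TSS; the MBT genes are below both lines for RBPJ (1 of 7) and above both for L3MBTL3 (2 of 7).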

How the data were processed

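Antibodies pulled protein-bound DNA from sonicated cells, per the labels' protocols. Single-end reads of 50 cycles, 30 to 40 M (megareads) aligned per library, had adaptors removed by Trimmomatic, and BWA 0.7.15 placed them on hg19. Per the submitters' processing notes, peaks came from MACS2. The MACS2 cutoff, like its background sample, is not given in the sources used here. From 1 library came each list. Used as deposited were the fold enrichment (a ratio over local background) and the -log10 p and q values. The deposited score was not needed. The smallest -log10 q was 1.31 (RBPJ) and 1.30 (L3MBTL3). Read counts behind peaks, and so their error, are unknown, and folds were ranked only within a list.

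Genes, TSS and sequence came from GENCODE 44 lifted to GRCh37, whose coordinates are those of hg19. Distances run from the summit to the nearest TSS of a protein-coding transcript. Peaks were shared where they overlapped by at least 1 bp. Distance and word searches (Python 3.11.15, pandas 2.3.3) were tested on simulated data. The members and lists were chosen with earlier results of these data known. Named are all 7 members, their peaks within 50 kb or else their nearest summits, the genes nearest to these, and from each list up to 6 genes by fold. Alternatives were other distances, TSS sets, q and fold limits, overlap rules and word windows.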

Additional observations from a re-analysis of the deposited data

How the results depend on the processing

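The count of MBT genes with an RBPJ summit was 1 of 7. It was 2 at 100 kb, where MBTD1 is added, and 0 when peaks needed a -log10 q of 5 or more. It was 1 under the other 7 settings, among them 1 and 10 kb, distance from the peak's edge, TSS of all transcripts, the gene's 5-prime end alone and folds no lower than the list median. The count with an L3MBTL3 summit was 2 of 7. It was 1, SFMBT1, at 10 kb, at 1 kb, at that q limit and at the limit of the list's median fold, and 2 under the other 5. SFMBT2 dropped out under those 4. Peaks near MBT genes that were shared by both lists were 0 under all 4 rules. By the main rule, 28.6% of all L3MBTL3 peaks and 4.37% of all RBPJ peaks overlapped the other list. Of the 4 peaks, 0 had a high-affinity RBPJ word in any of the windows tried, 0 had the core, and 1, that of L3MBTL1, had the 7-letter word, a choice made after seeing the data. With 1 library per antibody no replicate could be left out, and a gene without a peak cannot be read as unbound at this depth.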

Other observations

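SCMH1 and SCML2, other human genes with MBT repeats, had no peak of either protein within 50 kb of a TSS. For SCMH1 the nearest RBPJ summit was 160 kb away (fold 5.58), nearest to CITED4, and the nearest L3MBTL3 summit 119 kb away (fold 4.56), 437 bp from a TSS of FOXO6. For SCML2 the nearest RBPJ summit was 509 kb away, 107 bp from a TSS of its relative SCML1 (fold 5.66), and the nearest L3MBTL3 summit was 21.6 Mb away, at BCOR.

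The density of RBPJ peaks differed widely between the chromosomes of the MBT genes. It was 23.5 peaks per 10 Mb on chromosome 20 (L3MBTL1), 22.9 on 17 (MBTD1), 19.1 on 6 (L3MBTL3), 11.5 on 10 (SFMBT2), 7.22 on 3 (SFMBT1), 5.89 on 18 (L3MBTL4) and 1.95 on 22 (L3MBTL2), against 9.64 over all chromosomes analysed. The single RBPJ peak of the family is on the densest of these chromosomes, where 37.9% of 538 genes had an RBPJ summit within 50 kb. On chromosomes 17 and 6, where MBTD1 and L3MBTL3 had no such summit, the shares were 32.8% and 39.3%. For L3MBTL3 peaks the density was 0.909 per 10 Mb on chromosome 3, which holds SFMBT1, and 2.66 on chromosome 10, which holds SFMBT2, against 1.46 over all. Within 50 kb, 2.35% of genes on chromosome 3 and 4.53% on chromosome 10 had an L3MBTL3 summit.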
